A study of Rattus norvegicus with 70 samples.

Results

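The globin and erythroid rows are those of the deposited count table named Hba1, Hba2, Hbb, Hbb-b1 or Alas2. These 5 symbols hold 6 of the 17048 rows, because Hbb-b1 has 2 rows, and 1 of those is at 0 in every library. The other 5 rows carried counts and passed the filter on low counts in every fit. They were picked out with their levels in these libraries known, so their own treatment contrasts are given as a description and carry no test.

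Libraries were made from 5 organs of Sprague-Dawley rats on postnatal day 63, in a study of oral exposure to bisphenols. Dams received vehicle, bisphenol A (BPA) at 500 mg/kg/day, or a mixture of the same total dose (Mix) starting on gestational day 6 and ending on lactation day 6. The Mix held BPA at 160, bisphenol F at 160 and bisphenol S at 180 mg/kg/day. Litters were culled on day 4, and pups were given their dam's substance at 250 mg/kg/day from day 7 to day 63. Liver and thyroid came from 3 rats of each sex and treatment, testis from 3 males and ovary from 3 females per treatment. Kidney came from 3 males per treatment and from 2 vehicle, 2 BPA and 3 Mix females, which gives 70 libraries in all. The labels do not give the litters, so some rats of a group may be siblings, and a p-value measures only the spread between these rats. Whether organs were perfused or rinsed of blood is not given in the sources used here.

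Hemoglobin, the oxygen carrier of red blood cells, is built of pairs of alpha and beta globin chains, each holding a heme. Alas2 encodes the erythroid form of the enzyme that opens heme synthesis, while its relative Alas1 serves other tissues. Reticulocytes, the young red cells in the circulation, still hold globin mRNA, so globin transcripts are found in most organs that contain blood. In adult rats red cells form mainly in bone marrow and spleen, and neither was sampled. In whole tissue, fewer cells of a type and less RNA per cell cannot be told apart.

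Promoters of the members are shown because their levels parted in places, Alas2 from the globin rows in testis and the beta from the alpha rows in female thyroid. They run from 250 bases before to 50 after the annotated start and come from RefSeq on build GRCr8, whereas the counts were made on rn6. Capitals mark matches to 4 motifs. CACCC is a core of sites of the erythroid factor Klf1, GATAA of sites of Gata1 and CCAAT of sites of general promoter factors, and these were searched on both strands. ATAAA, as found in TATA-like boxes, was searched on the gene's own strand. In RefSeq, Hba2 is another name of Hba-a2, but Hba1 is another name of both Hba-a1 and Hba-a2, so which copy the Hba1 row counts is uncertain. The alpha genes lie on chromosome 10 and the beta genes on chromosome 1, all on the minus strand, and Alas2 lies on the plus strand of X.
Hba-a1, chr10:15842531-15842830, minus strand: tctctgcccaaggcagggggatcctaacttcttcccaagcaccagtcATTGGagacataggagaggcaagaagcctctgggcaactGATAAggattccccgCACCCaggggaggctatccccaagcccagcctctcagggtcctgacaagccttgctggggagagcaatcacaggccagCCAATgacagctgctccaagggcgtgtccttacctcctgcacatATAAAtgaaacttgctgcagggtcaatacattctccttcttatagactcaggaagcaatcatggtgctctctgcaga
Hba-a2, chr10:15829089-15829388, minus strand: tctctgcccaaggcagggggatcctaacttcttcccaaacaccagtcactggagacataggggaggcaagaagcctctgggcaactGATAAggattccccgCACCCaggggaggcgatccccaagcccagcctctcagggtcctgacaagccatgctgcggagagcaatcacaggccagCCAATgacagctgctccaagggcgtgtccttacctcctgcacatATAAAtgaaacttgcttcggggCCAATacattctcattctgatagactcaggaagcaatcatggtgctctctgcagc
Hbb, chr1:167663672-167663971, minus strand: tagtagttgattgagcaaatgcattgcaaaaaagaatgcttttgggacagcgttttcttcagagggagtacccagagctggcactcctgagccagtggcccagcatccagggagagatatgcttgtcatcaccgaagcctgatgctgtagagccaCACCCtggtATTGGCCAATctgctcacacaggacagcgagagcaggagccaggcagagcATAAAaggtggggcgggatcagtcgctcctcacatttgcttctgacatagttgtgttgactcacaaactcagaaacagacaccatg
Hbb-b1, chr1:167643471-167643770, minus strand: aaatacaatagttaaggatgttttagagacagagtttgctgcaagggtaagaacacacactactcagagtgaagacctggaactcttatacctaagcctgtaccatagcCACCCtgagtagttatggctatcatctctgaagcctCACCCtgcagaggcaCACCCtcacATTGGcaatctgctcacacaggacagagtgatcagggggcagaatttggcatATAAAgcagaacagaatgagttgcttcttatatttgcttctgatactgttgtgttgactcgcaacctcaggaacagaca
Alas2, chrX:22895200-22895499, plus strand: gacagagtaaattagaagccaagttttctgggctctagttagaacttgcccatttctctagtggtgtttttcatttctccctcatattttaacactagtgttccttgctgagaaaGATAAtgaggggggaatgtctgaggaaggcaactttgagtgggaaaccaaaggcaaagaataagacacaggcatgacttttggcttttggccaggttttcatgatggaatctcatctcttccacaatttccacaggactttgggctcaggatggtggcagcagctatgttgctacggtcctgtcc

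Both alpha promoters held all 4 motifs, which 1.97% of the 33469 RefSeq promoters of that length did. In each, GATAA began at -164, CACCC at -149, CCAAT at -71 and ATAAA at -27, counted from the annotated start. The Hbb and Hbb-b1 windows held CACCC along with CCAAT and with ATAAA. The Alas2 window held 1 match, GATAA at -135. Alone, CACCC was in 54.9% of all promoters, CCAAT in 37.5%, ATAAA in 27.4% and GATAA in 26.5%. A match describes letters and is not a binding site. The alpha windows were identical at 288 of 300 bases, and Hbb and Hbb-b1 at 206. Copies of a globin gene can share reads at the transcript end that the 3′ kit sequences, but these windows do not cover that end. The split of counts between Hba1 and Hba2, and among the beta rows, is therefore uncertain.

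Each library held 4803807 to 10929957 counts, and levels are given as counts scaled to a total of 1000000 (CPM). The kit reads about 1 fragment per transcript, so CPM can be set side by side between genes without a length correction. Rows of ribosomal RNA took 0.660% to 37.2% of counts and are part of the total. Defining markers matched the labelled organs: summed liver markers were at 66795 CPM or more in liver and at most 3812 elsewhere, and thyroid markers at 26994 or more in thyroid and at most 185.6 elsewhere. The lowest sums of kidney, testis and ovary markers in their own organ were 3445, 46226 and 1225 CPM, and each lay above every library of the other organs. Spermatid and other testis markers reached 16105 CPM in 1 thyroid library and 1799 in 1 kidney library. The Hba1 row held 564 to 65784 counts a library, Hbb-b1 61 to 8409 and Alas2 64 to 628, so counting error weighs most on Alas2 and on testis Hbb-b1.

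Globin transcripts were abundant in 4 organs and scarce in testis. Summed over Hba1, Hba2, Hbb and Hbb-b1, kidney libraries ranged from 8571 over a median of 12343 to 22434 CPM (mean 12909 ± 3959, SD, n = 16). The thyroid range was 4761 to 16443 with a median of 8887 (mean 9442 ± 3242, SD, n = 18), and the liver range 4461 to 12338 with a median of 8126 (mean 8256 ± 2985, SD, n = 18). Ovary spanned 3211 to 16998 with a median of 5926 (mean 7495 ± 4276, SD, n = 9), while testis spanned 166 to 893 with a median of 357 (mean 454 ± 229, SD, n = 9). Kidney, thyroid, liver and ovary overlapped with their neighbours in this order, and testis lay wholly below all of them. The 4 rows together made up 0.0166% to 2.24% of a library's counts. The order among the first 4 organs depends on the scaling: with TMM factors over all 70 libraries, the median of liver rose to 13153 CPM and stood first, ahead of kidney at 10281, thyroid at 6476, ovary at 4373 and testis at 418. Without the ribosomal RNA rows the medians were 15017 in kidney, 9132 in thyroid, 9113 in liver, 7390 in ovary and 381 in testis. Testis was lowest on all 3 scales.

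**Figure D1:**
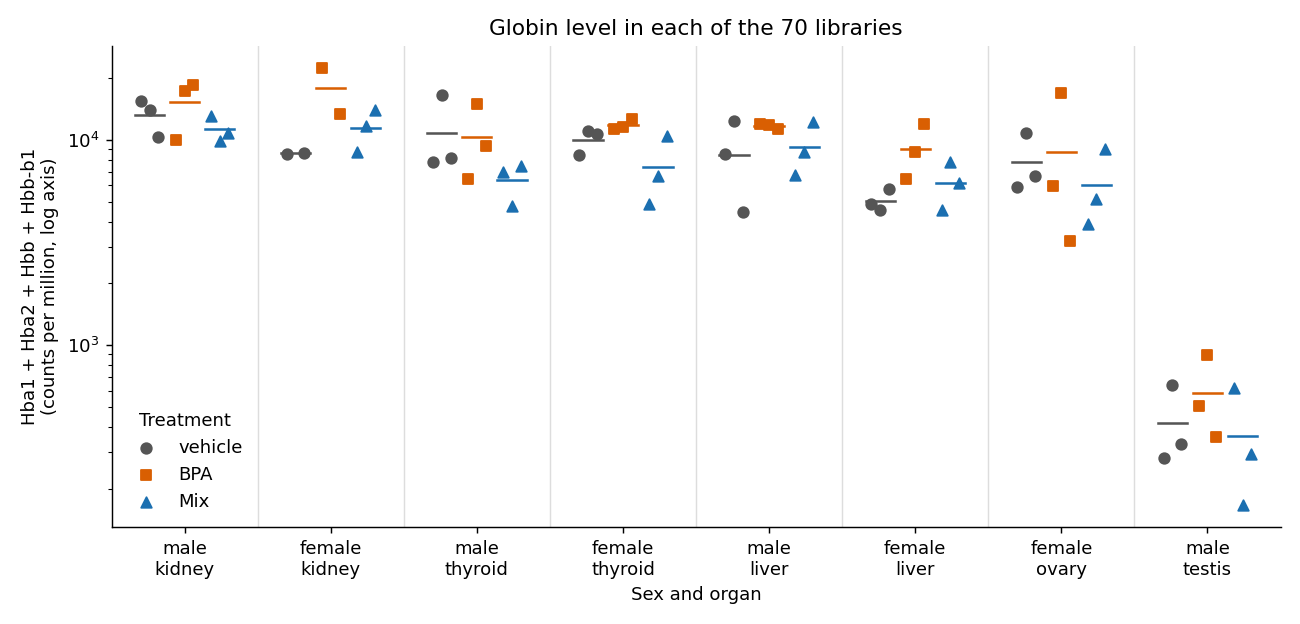
Summed CPM of Hba1, Hba2, Hbb and Hbb-b1 (log axis) in each of the 70 libraries, by sex and organ, with 1 point per library and colour and shape for treatment. Testis libraries sit between 166 and 893 CPM, below every library of the other organs, which start at 3211.

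By row, Hba1 had medians of 5512 CPM in kidney, 3645 in liver, 3510 in thyroid, 2607 in ovary and 146 in testis. Hba2 followed Hba1 closely, at 0.914 to 1.033 of its count in all 70 libraries. Hbb, a beta globin row, had its highest median in thyroid, at 1143 CPM, next to 1073 in kidney, 644 in liver, 606 in ovary and 43.6 in testis. Hbb-b1, another beta copy, had medians of 495 CPM in kidney, 398 in thyroid, 316 in liver, 299 in ovary and 18.4 in testis. For each of these rows the ranges of neighbouring organs overlapped except between ovary and testis.

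Other beta copies held as many counts as the member rows. LOC100134871, which RefSeq names Hbbl1, had medians of 1410 CPM in kidney, 1396 in thyroid, 936 in liver, 743 in ovary and 63.4 in testis. LOC689064, which RefSeq names Hbb-bs, reached 850 CPM in kidney and 670 in thyroid, and was at 533 in liver, 521 in ovary and 38.2 in testis, again as medians. The promoter of Hbb-b1 was identical to that of Hbbl1 at 292 of 300 bases. The ratio of alpha to beta counts therefore depends on the rows included, and it had a median over all libraries of 2.54 (range 0.543 to 4.34) once the LOC rows were counted.

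Over the member rows alone, the alpha to beta ratio had medians of 6.75 in kidney, 6.66 in liver, 6.23 in ovary, 5.24 in testis and 5.10 in thyroid. Its spread was widest in thyroid, where it ran from 1.23 to 9.66, against 4.45 to 11.8 in liver, 4.53 to 8.05 in kidney, 5.47 to 7.92 in ovary and 4.25 to 6.46 in testis. Thyroids of vehicle females were at 5.27, 2.49 and 1.23 in replicates 1, 2 and 3, and the last 2 of these were the lowest of all 70 libraries. Thyroids of BPA females were at 9.47, 4.67 and 7.03, and those of Mix females at 6.52, 7.12 and 9.66. In males the thyroid ratios were 3.40, 5.09 and 2.56 under vehicle, 4.87, 3.32 and 5.12 under BPA and 3.33, 5.59 and 7.02 under Mix. The ribosomal RNA share also differed between vehicle and Mix females: it was 3.26%, 0.983% and 0.660% in the vehicle thyroids and 11.7%, 16.5% and 23.7% in the Mix thyroids. Over all 9 female thyroids, those under BPA included, its median was 5.33%. Shares of the BPA thyroids are not set beside their ratios here. The part of this share in the ratio was not tested.

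**Figure D2:**
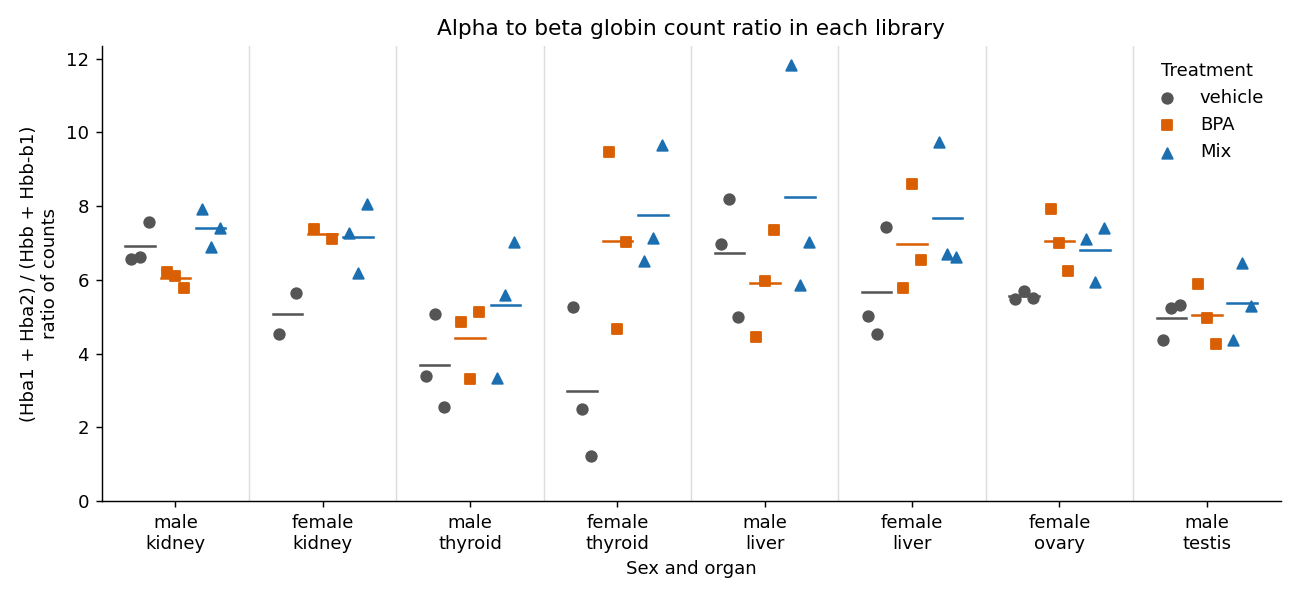
Ratio of summed Hba1 and Hba2 counts to summed Hbb and Hbb-b1 counts in each library, by sex and organ, with colour and shape for treatment. Thyroid libraries spread from 1.23 to 9.66, with the lowest value in a vehicle female, while kidney libraries lie between 4.53 and 8.05.

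Alas2 did not follow the globin rows in testis. Its CPM had medians of 47.3 in kidney (range 23.01 to 93.2), 45.9 in testis (40.4 to 51.5), 35.1 in thyroid (15.8 to 67.7), 32.6 in liver (16.7 to 66.9) and 24.1 in ovary (10.5 to 60.9). All 5 ranges overlapped. Set against globin, however, testis stood apart: it held a median of 129 Alas2 counts per 1000 globin counts (57.7 to 270), whereas the other organs had medians of 3.82 to 4.51 and no library above 6.67. Testis Alas2 was also the most even, with a coefficient of variation of 7.97% over 9 libraries against 35.8% to 53.9% in the other organs. The same 9 testis libraries varied by 50.4% in globin.

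**Figure D3:**
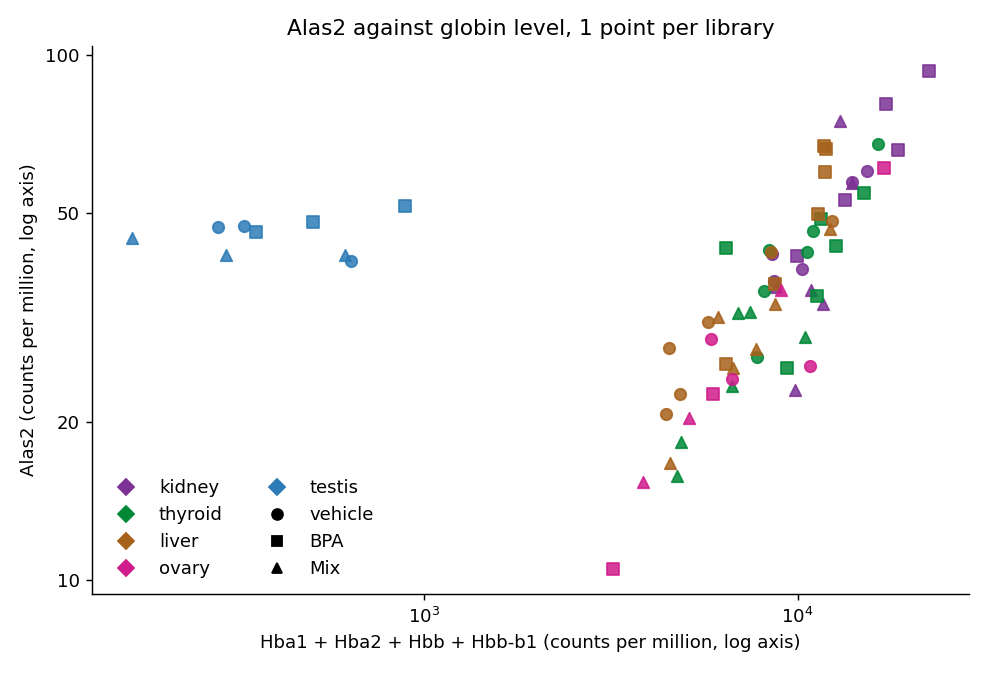
Alas2 CPM against summed globin CPM, both on log axes, with 1 point per library, colour for organ and shape for treatment. The 9 testis libraries form a flat row at 40.4 to 51.5 CPM of Alas2 far to the left, while in the other organs libraries with more globin tend to hold more Alas2.

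Other erythroid and heme genes in testis did not share one pattern. Slc4a1, the anion exchanger of the red cell membrane, was at 0.110 to 0.640 CPM there, and Ahsp, the chaperone of free alpha globin, at 0 to 0.889. Hemgn, an erythroid nuclear protein, was at 562.5 to 825.5 CPM in testis and at most 144.5 elsewhere. Gata1, which is also active in Sertoli cells, was at 2.17 to 4.57 CPM in testis and reached at most 3.52 in the other organs. Enzymes of the heme pathway differed in this respect. In testis, 4 of them lay below every library of the other organs: Alad at 12.1 to 24.6 CPM against 32.3 or more elsewhere, Urod at 16.8 to 29.4 against 53.7 or more, Cpox at 6.87 to 13.2 against 20.99 or more, and Fech, which inserts the iron, at 10.4 to 14.5 against 32.3 or more. The testis ranges of 3 others overlapped with other organs: Alas1 was at 31.8 to 75.3 CPM, Ppox at 4.49 to 9.40 and Uros at 5.26 to 16.1, and the highest Uros level of any other organ was 10.2. In kidney, Slc4a1 was at 73.0 to 357 CPM, above the 31.0 or less of every other organ. A short form of that exchanger is known from acid-secreting cells of the kidney.

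Within organ and sex, the rows of a chain type moved together. Over the 70 libraries, each centred on its organ and sex on the log2 scale, Pearson's r was 0.999 between Hba1 and Hba2 and 0.968 between Hbb and Hbb-b1. It was 0.739 between Hba1 and Hbb and 0.741 between Alas2 and Hba1. These libraries share animals, and the copies can share reads, so the values are a description. In ovary alone r between Alas2 and Hba1 was 0.929 and in liver 0.868, while in testis it was 0.131 (n = 9). Between Hba1 and Hbb, r was 0.446 in thyroid and 0.973 in testis. Among 11531 rows with enough counts, those most like the summed globin rows were LOC689064 (r = 0.86), LOC100134871 (r = 0.86) and LOC287167 (r = 0.64), all globin copies. Next came Rpl30 at 0.50, Alox15 at 0.47, LOC100910237 at 0.47, Ndufb8 at 0.47, Ahsp at 0.46 and 2 rows named Rps14 at 0.45 and 0.44. Members, Alas2 among them, were left out of this ranking, and over all 70 libraries no ranked row outside the globin family exceeded 0.50. Outside testis (61 libraries), Alox15 reached 0.53 and LOC100910237 0.52. Over the 18 liver libraries the leading rows were LOC689064 (0.84), Mturn (0.84), LOC100134871 (0.84), Anapc11 (0.83), LOC287167 (0.82), Car5a (0.82), LOC100910237 (0.79), Gsta1 (0.79), Gjb1 (0.78) and Gabarapl2 (0.78).

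Globin levels were lower in female than in male liver. Hba1 ranged from 1903 over a median of 4972 to 5667 CPM in 9 males and from 1925 over 2741 to 5336 CPM in 9 females. Over the 3 treatments, Hba1 was lower in females, with a log2 difference of -0.62 ± 0.17 (SE; edgeR quasi-likelihood test, adjusted p = 0.017). Hba2 differed by -0.61 ± 0.17 (edgeR adjusted p = 0.017) and Hbb by -0.65 ± 0.20 (edgeR adjusted p = 0.036). Alas2 was at -0.51 ± 0.18 (edgeR adjusted p = 0.075) and Hbb-b1 at -0.49 ± 0.19 (edgeR adjusted p = 0.11), which did not pass. Thus 3 of 5 members were lower in females, and 6.58% of the 10044 rows tested were. The median difference of the 5 was -0.61, against 0.00 over all rows. DESeq2 called 4 of the 5. The ranges of the sexes overlapped for all 5. The members were chosen with their levels in these livers known, so these p-values describe the difference and are not independent support for it.

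Ribosomal RNA differed with sex in liver as well, at 2.51% to 23.4% of counts in males and 13.9% to 24.2% in females. With that share as a covariate, no member passed: Hba1 was at -0.34 (edgeR adjusted p = 0.37), Hba2 at -0.35 (0.36) and Hbb at -0.47 (0.32). In the 3 vehicle males and 3 vehicle females alone, the difference was -0.61 for Hba1 (edgeR adjusted p = 0.32), -0.59 for Hba2 (0.32) and -0.39 for Hbb (0.66). Leaving out each of the 18 liver libraries in turn left Hba1 and Hba2 past the threshold 18 times each. Hbb passed in 8 of these 18 fits, with edgeR adjusted p from 0.0088 to 0.082.

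The 3 other globin rows tested were also lower in female liver: LOC287167 by a log2 difference of -0.75 ± 0.19 (edgeR adjusted p = 0.010), LOC100134871 at -0.61 (0.032) and LOC689064 at -0.59 (0.042). Of 11 erythroid membrane, transport and transcription genes, 3 were lower in females and none higher. Ahsp differed by -2.14 ± 0.48 (edgeR adjusted p = 0.0040), from 0 to 6.69 CPM in males and 0.262 to 1.39 in females. Epb42, a protein of the red cell membrane skeleton, was at 0 to 1.76 CPM in males and 0 to 0.242 in females, and Xk, a membrane protein of red cells, at 1.39 to 6.46 and 0 to 1.79. Slc4a1 was at 0.06 and did not pass. In the vehicle livers alone, Xk was the only one of these globin and erythroid rows that passed, at -5.49 (edgeR adjusted p = 0.0010). The 3 globin copies can also share reads with the member rows.

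Heme and iron genes split. Only Cpox of the 10 heme synthesis genes passed, at -0.58. Of 19 iron and heme handling genes, 3 were higher and 4 lower in females, where 5.9% of all 10044 rows were higher and 6.58% lower. Hamp encodes hepcidin, the hormone that limits iron release into blood. It ran from 84.8 to 1059 CPM in males and from 754 to 3838 in females, a log2 difference of 1.71. Slc40a1, the iron exporter that hepcidin blocks, was higher by 0.79, while Hfe, a regulator of hepcidin, was at -1.38 and Hp, which binds free hemoglobin, at -0.87. Among markers of other blood cells, none of 3 platelet, 2 neutrophil and 6 lymphocyte genes passed in edgeR or DESeq2, and 1 neutrophil gene had an unadjusted p below 0.05. Of 10 macrophage genes, Marco was lower in females, at -0.73 (edgeR adjusted p = 0.0084), with 15.4 to 88.3 CPM in males and 15.6 to 41.6 in females. Their summed CPM in males and females was 1.96 to 10.6 and 2.65 to 12.1 for platelets, 5.54 to 24.2 and 3.63 to 21.7 for neutrophils, and 14.8 to 32.5 and 17.4 to 43.9 for lymphocytes. Of 5 hepatocyte markers, 4 were lower in females, such as Alb at -0.50 and Ttr at -0.89, and 2 testis transcripts were lower too, Tnp1 at -3.32 and Odf1 at -3.84. Only Slc40a1, Hfe and Marco among these genes also passed in the vehicle livers alone. Their log2 differences there were 1.00 (edgeR adjusted p = 0.0017), -1.68 (0.011) and -1.29 (0.017). The part of these shifts in the globin difference was not tested.

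In kidney the members did not differ detectably between the sexes, with log2 differences of -0.05 to 0.04 in edgeR, although 11.5% of 11651 rows were called there. Other genes of the lists did differ in kidney, such as Tfrc, the transferrin receptor, at -1.19, and Alad, the heme enzyme after the Alas step, at -0.59. In thyroid no member passed in edgeR, and 0.0417% of 12003 rows did. No member passed in any of the 6 tests of whether a treatment difference depended on sex, run in liver, kidney and thyroid for BPA and for Mix against vehicle. Of all rows, 0.209% and 0.189% passed these tests in liver for BPA and Mix, 4.73% and 0.00858% in kidney, and 0% in thyroid. In all of these tests in kidney and thyroid, and in those of interaction in liver, 0 members had an unadjusted p below 0.05 and 0 passed in DESeq2.

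Across the 3 treatments, member levels were most often highest under BPA. For 5 rows in 8 combinations of organ and sex there are 40 values per contrast. Mean CPM was higher under BPA than vehicle in 30 of 40, lower under Mix than vehicle in 30 of 40, and lower under Mix than BPA in 40 of 40. Over all rows and combinations, 48.0% of means were higher under BPA than vehicle, 50.1% lower under Mix than vehicle and 47.5% lower under Mix than BPA. Fitted differences were above 0 in 31 of 40, below 0 in 29 and below 0 in 40, in the same order. Single signs depended on the scaling: under BPA, mean CPM of Hba1 in ovary was 1.14 of vehicle, but its fitted log2 difference was -0.09. Of 8236 rows with a value in all 8, 0.449% were lower under Mix in every one. None of the 120 member contrasts passed at an adjusted p of 0.05 in edgeR, where 0.892% of all 255357 did, while 32 had an unadjusted p below 0.05 and 6 passed in DESeq2. The 3 contrasts of an organ and sex share their libraries, organs of a rat are not independent, and the rows were chosen on these data, so no more is read from these counts. The ranges of BPA lay wholly above vehicle for 13 of 40 (10.8% of all rows) and never wholly below (12.8%). Mix lay wholly below BPA for 7 of 40 (8.05%) and never above (10.4%), and wholly below vehicle for 5 (8.58%) and above for 2 (10.6%).

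**Figure D4:**
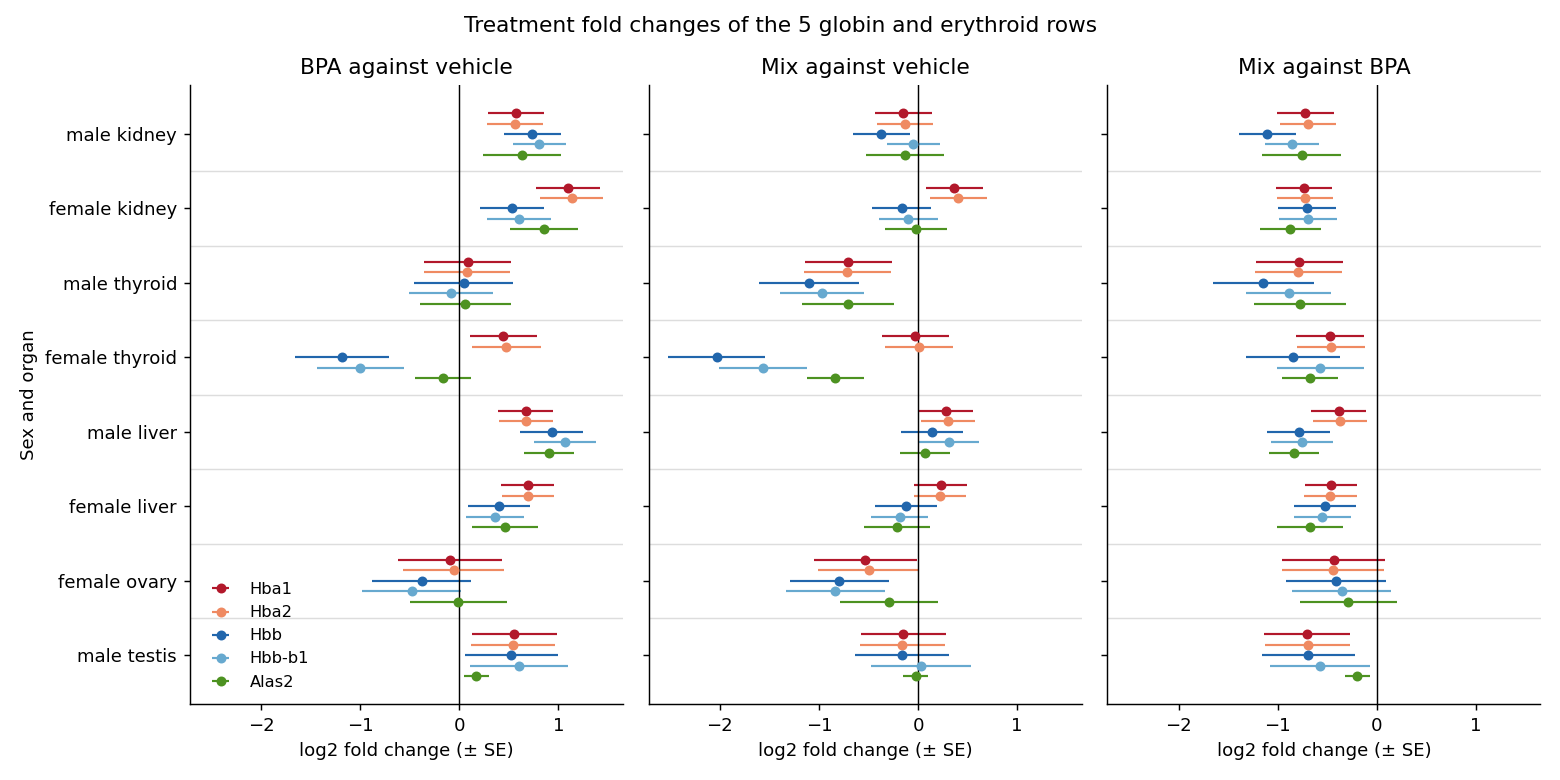
Fitted log2 fold changes of the 5 member rows with their standard errors, by organ and sex, in 3 panels, 1 per pair of treatments. Values for Mix against BPA all lie below 0, and the largest departure is Hbb in female thyroid for Mix against vehicle, at -2.03 ± 0.49.

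In male liver, Hba1 was at 3817, 5667 and 1903 CPM under vehicle, 4972, 5184 and 5126 under BPA and 3146, 3816 and 5496 under Mix. Alas2 was at 42.2, 48.2 and 20.7 CPM under vehicle, 59.8, 66.9 and 49.7 under BPA and 25.4, 33.6 and 46.7 under Mix. Alas2 and Hbb-b1 lay wholly above vehicle under BPA (2.28% of all rows), while Hba1 overlapped because vehicle replicate 2 was high. Vehicle replicate 3, the lowest of the 3 vehicle libraries for all 5 rows, had 23.4% ribosomal RNA against 2.51% to 2.72% in the other two. Fitted BPA against vehicle differences were 0.67 ± 0.28 for Hba1, 0.68 ± 0.27 for Hba2, 0.93 ± 0.31 for Hbb, 1.06 ± 0.31 for Hbb-b1 and 0.91 ± 0.25 for Alas2 (log2 ± SE). For Mix against vehicle all 5 were between 0.07 and 0.31. Of all rows in male liver, 0.228% were called for BPA against vehicle, 0.321% for Mix against vehicle and 0.0103% for Mix against BPA, and Alas2 lay wholly lower under Mix than BPA (3.21%).

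Female liver held 2086, 1925 and 2571 CPM of Hba1 under vehicle, 2792, 3964 and 5336 under BPA and 2097, 3474 and 2741 under Mix. Hbb was at 576, 548 and 420 CPM under vehicle, 603, 610 and 1097 under BPA and 283, 679 and 551 under Mix. All 4 globin rows lay wholly above vehicle under BPA (14.6% of all rows), but Alas2 overlapped, at 22.7, 27.7 and 31.0 CPM against 25.8, 36.6 and 66.2. The fitted differences were 0.69 ± 0.27 for Hba1 and Hba2 at 0.69 ± 0.26, with Hbb at 0.40 ± 0.31, Hbb-b1 at 0.36 ± 0.29 and Alas2 at 0.46 ± 0.33. Calls over all rows in female liver were 0.419% for BPA, 0.0523% for Mix and 0% between the exposures.

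Male kidney held 6816, 6287 and 4624 CPM of Hba1 under vehicle, 4392, 7667 and 8121 under BPA and 5878, 4367 and 4887 under Mix. Hbb was at 1443, 1302 and 833 CPM under vehicle, 922, 1713 and 1918 under BPA and 920, 845 and 866 under Mix. Only Hbb separated groups, with Mix just below BPA (1.58% of all rows), and Hba1 overlapped throughout. Ribosomal RNA took 16.4% to 37.2% of counts under BPA and 1.71% to 3.50% under vehicle. An alternative fit with that share as covariate covered male kidney too, but its values are not given here. The part of that share in the CPM was not tested. The fitted Hba1 difference for BPA against vehicle was 0.57 ± 0.28, while the ratio of mean CPM was 1.14. Hbb for Mix against BPA was -1.11 ± 0.29. In male kidney 0.136% of all rows were called for BPA, 0.0273% for Mix and 2.93% for Mix against BPA.

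Female kidney, with 2 rats each under vehicle and BPA, held 3632 and 3812 CPM of Hba1 under vehicle, 10113 and 5989 under BPA and 3925, 5147 and 6341 under Mix. Alas2 was at 41.7 and 37.2 CPM, then 93.2 and 52.9, then 36.2, 33.6 and 56.9 in the same order. All 5 rows lay above vehicle under BPA, but with 2 against 2 this held for 19.7% of all rows. The first BPA library had the most globin of all 70, at 22434 CPM. Fitted BPA against vehicle differences were 1.10 ± 0.32 for Hba1, 1.13 ± 0.32 for Hba2, 0.53 ± 0.32 for Hbb, 0.60 ± 0.33 for Hbb-b1 and 0.86 ± 0.34 for Alas2. Under Mix, Hba1 and Hba2 also lay above vehicle (15.6% of all rows), and Hbb lay below BPA (10.2%). No row of the table passed in edgeR in any contrast of female kidney (0%).

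Male thyroid held 3095, 7090 and 2989 CPM of Hba1 under vehicle, 2778, 5948 and 4007 under BPA and 2745, 2090 and 3386 under Mix. Its Hbb values were 1274, 1949 and 1806 CPM under vehicle, 810, 2688 and 1141 under BPA and 1197, 503 and 664 under Mix. Hbb and Hbb-b1 lay below vehicle under Mix (7.53% of all rows), and 1 library each under vehicle and BPA stood high for the alpha rows. For Mix against vehicle Hbb was at -1.10 ± 0.51 and Hba1 at -0.70 ± 0.44. The first BPA library held 9908 CPM of Tnp1, a spermatid transcript, together with 144.5 CPM of Hemgn. In male thyroid no row of the table passed in edgeR (0%).

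Female thyroid was where alpha and beta rows parted. Hba1 was at 3635, 4105 and 3058 CPM under vehicle, 5232, 4927 and 5699 under BPA and 2186, 3023 and 4844 under Mix. Hbb was at 1010, 2307 and 3717 CPM under vehicle, 764, 1544 and 1144 under BPA and 452, 589 and 669 under Mix. Thus Hba1 was wholly higher under BPA (8.88% of all rows) while Hbb was not, and Hbb, Hbb-b1 and Alas2 were wholly lower under Mix (14.6% of all rows). For Mix against vehicle the fitted differences were -2.03 ± 0.49 for Hbb, -1.57 ± 0.44 for Hbb-b1 and -0.83 ± 0.29 for Alas2, against -0.03 ± 0.34 for Hba1 and 0.01 ± 0.34 for Hba2. For BPA against vehicle they were -1.18 ± 0.48 for Hbb, 0.45 ± 0.34 for Hba1 and 0.48 ± 0.35 for Hba2. Testis transcripts and liver transcripts varied in the same vehicle thyroids, with Tnp1 at 2929, 1509 and 0.126 CPM. Their part in the beta globin values was not tested. Hba1, Hbb and Alas2 lay wholly below BPA under Mix (14% of all rows). Of all rows, 0.00899% passed in female thyroid for Mix against vehicle and 0% in both other contrasts.

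Testis held 115, 269 and 140 CPM of Hba1 under vehicle, 217, 378 and 146 under BPA and 254, 72.4 and 125 under Mix. Alas2 was at 47.0, 40.4 and 47.1 CPM under vehicle, 48.0, 51.5 and 45.9 under BPA and 41.6, 44.8 and 41.5 under Mix. The Alas2 groups lay within a few CPM of each other, yet Mix was wholly below BPA, as 8.55% of all rows were. For BPA against vehicle Hba1 was at 0.56 ± 0.43 and Alas2 at 0.17 ± 0.13. Of all testis rows, 0% passed for BPA or Mix against vehicle and 0.775% for Mix against BPA.

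Ovary held 2520, 4653 and 2879 CPM of Hba1 under vehicle, 2607, 7529 and 1361 under BPA and 1687, 2233 and 3989 under Mix. No member row separated any 2 groups in ovary, and the BPA ovaries alone spanned 3211 to 16998 CPM of summed globin. For BPA against vehicle Hba1 was at -0.09 ± 0.52 and Alas2 at -0.01 ± 0.49, and for Mix against vehicle Hba1 was at -0.53 ± 0.52. Ovary was the organ with the most calls over all rows, at 6.79% for BPA, 9.12% for Mix and 0.212% between both exposures.

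A minor alpha copy departed from Hba1 in ovary. LOC287167, which RefSeq names Hba-a3, was at 58.7, 160 and 95.8 CPM under vehicle, 306, 412 and 151 under BPA and 159, 121 and 210 under Mix. Per 1000 Hba1 counts this was 23.3 to 34.4 under vehicle, 54.7 to 117 under BPA and 52.7 to 94.3 under Mix, and 6.64 to 25.4 in every library of the other 4 organs. The ratio was thus higher in all 6 treated ovaries than in the 3 vehicle ovaries. Separation was common in ovary: the CPM of 28.2% of all rows lay wholly above vehicle under BPA and of 21% under Mix. No such share is given here for ratios of rows. The LOC287167 row itself did not pass, with a log2 difference of 1.14 ± 0.40 for BPA against vehicle (edgeR adjusted p = 0.10) and 0.43 ± 0.40 for Mix (edgeR adjusted p = 0.53). Its promoter was identical to that of Hba-a2 at 219 of 300 bases and is shown because this copy moved apart from Hba1.
Hba-a3, chr10:15816894-15817193, minus strand: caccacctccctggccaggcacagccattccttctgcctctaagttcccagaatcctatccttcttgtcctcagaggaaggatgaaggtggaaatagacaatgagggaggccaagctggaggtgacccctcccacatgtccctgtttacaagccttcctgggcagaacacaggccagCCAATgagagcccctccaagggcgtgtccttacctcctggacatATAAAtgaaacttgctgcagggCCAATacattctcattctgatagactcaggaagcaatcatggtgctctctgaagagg
It held CCAAT at -73 and -7 and ATAAA at -29.

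Over all organs of a rat, globin was set against the mean of its organ and sex on the log2 scale. The mean deviation of a rat was -0.44 to 0.53 for the 6 vehicle rats (median -0.12), -0.03 to 0.76 for the 6 BPA rats (median 0.16) and -0.66 to 0.20 for the 6 Mix rats (median -0.14). Deviations were above 0 in 1 of 6 vehicle, 5 of 6 BPA and 1 of 6 Mix rats, and the 3 groups overlapped. Whether a rat with much globin in 1 organ had much in another was tested in 12 pairs of organs within a sex, over 7 or 9 rats. None passed after Benjamini-Hochberg adjustment. The highest Pearson's r was 0.73, between male thyroid and testis (exact permutation p = 0.027, two-sided, adjusted p = 0.33; Spearman's rho 0.57, exact permutation p = 0.12, adjusted p = 0.40), and it was 0.40 without the 2 rats farthest from the median. Between male kidney and thyroid, r was 0.65 (exact permutation p = 0.062, adjusted p = 0.36) and rho 0.75 (exact permutation p = 0.025, adjusted p = 0.29). In females, liver and kidney had the highest rho, 0.79 (exact permutation p = 0.048, adjusted p = 0.29), with r at 0.68 (exact permutation p = 0.089, adjusted p = 0.36; 7 rats, and 0.68 without 2), but r was 0.01 after centring on treatment. Kidney and ovary went the other way, from an r of 0.46 to 0.92 after centring. The lowest r was -0.13, between liver and ovary.

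**Figure D5:**
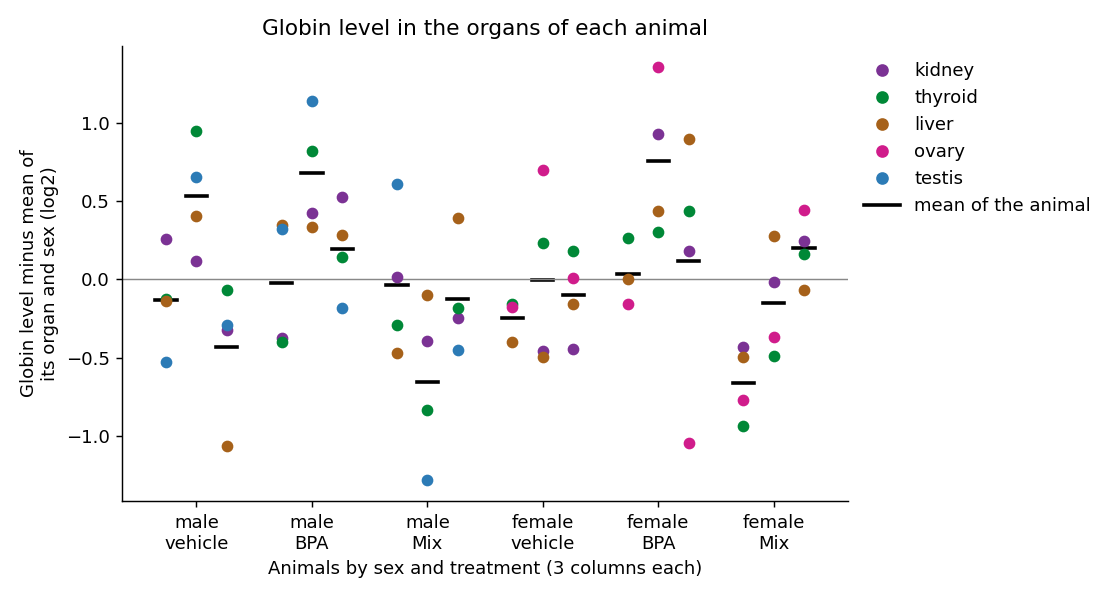
Globin level in each organ of each rat minus the mean of that organ and sex (log2), with 1 column per rat, points coloured by organ and a bar at the mean of the rat. Means run from -0.66 to 0.76, and 5 of the 6 BPA rats have a mean above 0 against 1 of 6 in each of the other groups.

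Genes around the members changed in few treatment contrasts. Over the 24 contrasts, none of 75 values of other globin rows passed in edgeR; 21 had an unadjusted p below 0.05, and DESeq2 called 6. Of 273 values of erythroid membrane, transport and transcription genes, 1 rose. That was Hemgn in male kidney for Mix against BPA, by 1.57, where Tnp1 rose by 3.60. Among the heme synthesis genes, Urod, a later enzyme of the pathway, fell by 0.53 on the log2 scale in ovary under Mix. Markers of other cells moved in the same ovaries: Lhcgr, the luteinizing hormone receptor, rose by 3.62 under BPA and 3.62 under Mix, and the liver transcripts Serpina1 and Ttr dropped by 4.54 and 4.19 under BPA. Their part in the heme and iron genes was not tested.

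Of 426 values of iron and heme handling genes, 1 passed: Tf, the plasma iron carrier, fell by 1.18 in ovary under Mix. Of 168 values of oxygen sensing genes, 4 passed, in ovary against vehicle, where 6.79% of all rows passed for BPA and 9.12% for Mix. Adm, a vessel-relaxing peptide gene, rose by 2.16 under BPA and 1.63 under Mix, and Bnip3 fell by 1.13 and by 0.83. Of the blood cell lists, platelet (78 values) and lymphocyte (132) genes had none past the threshold in edgeR. Unadjusted p was below 0.05 for 5 and 13 of them, and DESeq2 called 2 and 1. The neutrophil list had 2 of 54, S100a9 in ovary, which dropped by 2.53 under BPA and by 1.51 under Mix. Macrophage genes had 4 of 168, among them Marco, a scavenger receptor, at 65.8 to 88.4 CPM in vehicle, 15.4 to 17.9 in BPA and 24.4 to 43.1 in Mix livers of males, a fall of -2.01 ± 0.26 under BPA. The other 3 were C1qa and C1qc in ovary under BPA, both at -0.94, and C1qc in male kidney for Mix against BPA, at -1.18. Of 279 values of endothelial genes, Cdh5 alone passed, up by 1.22 in ovary under Mix. In the liver and female kidney contrasts where member rows lay wholly above vehicle under BPA, Marco in male liver was the one gene of these lists that passed.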

How the data were processed

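Per the labels' protocols, RNA was isolated with TRIzol and sequenced from its 3′ ends after library preparation with a QuantSeq kit. The submitters' processing notes name FastQC, Bowtie2, bedtools and edgeR with the rat build rn6 and give no versions. Their settings, the treatment of reads that match several copies and the use of strand are not given in the sources used here. The authors deposited raw counts per gene row for all 70 libraries in 1 table. Column names give the rat and organ, and each was matched to a sample by its description label.

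From these counts, CPM values over all rows were computed, and edgeR 4.0.16 (R 4.3.3, limma 3.58.1) was fitted to every row that passed its filter on low counts, with TMM factors and quasi-likelihood tests. Each combination of organ and sex had its own fit over 3 treatments. Liver, kidney and thyroid also had a joint fit of both sexes, for the sex difference and its interaction with treatment. P-values were adjusted over all rows tested by the Benjamini-Hochberg method, with a threshold of 0.05. The scripts were tested on simulated counts. Alternatives were DESeq2 1.42.0, its size factors in edgeR, no filter, the replicate number as a block, the ribosomal RNA share as covariate, vehicle libraries alone, and leaving out each library. Correlations over rats used exact permutation tests (scipy 1.17.1), and the percentage of ribosomal RNA came from rows named for those RNAs. Rows like the globin rows were ranked by Pearson's r of log2(CPM + 1), among rows with at least 10 counts in at least 20 libraries. Promoter pairs were aligned with Biopython 1.88. Of other lists, up to 4 rows that passed are named, by size of change. The depth was 4803807 to 10929957 counts a library.

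Members and lists were chosen with earlier results of these data known. Replicate numbers did not pair the libraries: correlations of same-numbered libraries' deviations were -0.37 to 0.26. Values of 1 heme synthesis gene are not reported here.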

Additional observations from a re-analysis of the deposited data

Results flagged for a closer look

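No member row passed the test of whether its treatment difference depended on sex, but 2 of 18 iron, 2 of 7 oxygen and 3 of 12 endothelial genes passed it in kidney for BPA against vehicle, where 4.73% of 11651 rows were called. All values are the female minus male difference of the log2 change, from the edgeR interaction test. Ftl1, the ferritin light chain, was at 1.50 (edgeR adjusted p = 0.018), Hmox2, a heme oxygenase, at 0.965 (0.042) and Ndrg1, a hypoxia-responsive gene, at 1.77 (0.033). Vegfa, the vessel growth factor, was at -1.59 (edgeR adjusted p = 0.028), with its receptor Flt1 at -1.19 (0.026), Eng at -1.74 (0.016) and Pecam1 at -1.26 (0.034). Of 5 kidney cell markers, Slc34a1, the phosphate carrier of the proximal tubule, passed too, at 1.94 (edgeR adjusted p = 0.035). These rest on 2 females each under vehicle and BPA. Ribosomal RNA took 16.4% to 37.2% of counts in BPA and 1.71% to 3.50% in vehicle kidneys of males. Values of these genes from the alternative fit with that share as covariate are not given here.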

How the results depend on the processing

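The 0 of 120 member contrasts past the threshold became 4 without the low-count filter and 6 in DESeq2, and 0 to 4 when 1 library was left out. It was 4 without replicate 1 of vehicle female thyroid, 2 without replicate 1 of vehicle female kidney or of Mix male kidney, and 1 without replicate 1 of BPA male kidney. A joint fit of both sexes, chosen after seeing the data, gave -1.52 ± 0.38 for Hbb in thyroid for Mix against vehicle (edgeR adjusted p = 0.049). The 16 list values called became 26 without the filter, 77 in DESeq2 and 10 to 37 when 1 library was left out: 37 without replicate 1 of vehicle female thyroid, 29 without replicate 1 of Mix male kidney, 28 without replicate 1 of vehicle female kidney, and 10 without replicate 2 of vehicle ovary or replicate 3 of BPA ovary. For the sex difference, the 3 members called in liver became 5 without the filter, 0 with the ribosomal RNA covariate and 0 in vehicle libraries alone, and the 17 list genes became 10 with that covariate and 6 in vehicle libraries. In kidney 13 list genes became 7 in vehicle libraries alone, where Flt1 reversed to 0.16. In thyroid 0 became 2 in DESeq2 and 0 to 1 when 1 library was left out, with 1 without replicate 1 of vehicle female thyroid. Median globin in liver moved from 8126 to 13153 CPM with TMM over all 70 libraries. The cause of these shifts was not tested. With a replicate block, 4 members were called in liver, Alas2 among them at -0.56 (edgeR adjusted p = 0.045), and Cdh5 (0.061) and S100a9 (0.052) in ovary under Mix no longer passed. Of the values for single genes followed in a tally, 3559 kept direction and side of the threshold, 217 lost it, 8 gained it and 1 reversed. Another 52 values were classed as moved. The tally does not cover every list value counted above, so its 8 gains are not the number of added calls. Depth limits Hbb-b1, at 61 counts in 1 testis library, and Alas2, at 64 counts in 1 ovary library.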
